A study of Mus musculus with 8 samples.

Results

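The core circadian clock was examined in dermal fibroblasts of mice on a high fat diet, as 10 listed genes (Arntl, Clock, Per1, Per2, Per3, Cry1, Cry2, Nr1d1, Nr1d2 and Dbp) of 17097 genes tested. A listed gene was measured where the platform annotation named it alone on a probe set, which held for 9 of the 10, with 19 probe sets in all. Nr1d1 was not analysed here. Each gene was represented by its brightest probe set, and results of these data were known when the list was drawn up.

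The study profiled fibroblasts from female mice that ate a high fat diet (HFD) or a control diet, labelled normal diet (ND), for 6 months from the age of 2 months. Both groups were killed on the same day. The hour of killing and the strain are not given in the sources used here. Cells were sorted from collagenase-digested dermis for Pdgfra and CD34 and against CD45, CD117, CD24, CD31 and EpCam, and their RNA was amplified by PCR before hybridisation. There were 4 HFD and 4 ND arrays, of which the labels exclude ND 4 by quality control, so HFD 1 to 4 were compared with ND 1 to 3. Specimens were treated as separate mice, and precision is limited by how few arrays there were.

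The clock is a feedback loop of transcription that runs with a period of about a day in most cells, dermal fibroblasts included. BMAL1 (the product of Arntl) and CLOCK form a dimer that binds E-box sequences and activates the Per, Cry, Nr1d and Dbp genes. The PER and CRY proteins then inhibit that dimer, while the nuclear receptors REV-ERB alpha and beta (Nr1d1 and Nr1d2) repress Arntl through ROR elements, on which the ROR receptors activate it. DBP, with its relatives TEF and HLF, activates genes that carry D-boxes, and NFIL3 represses them. Because these transcripts rise and fall over the day, the level in each mouse is a single reading of a cycle. With the hour of killing not given, it is not known whether all mice were read at the same point of it.

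Of the 13 RefSeq start sites given for 9 of the listed genes (no entry for Per2), 3 held a clock motif in the 250 bases before the start. These sequences are shown, and a link between motifs and the diet difference was not tested. Coordinates are those of GRCm38.p6, each sequence is written in the direction of its gene, and capitals mark the motifs. The Per1 stretch (chr11:69098699-69098948, plus strand) lies before the upstream of its 2 start sites, with an E-box at 166 to 161 bases and a D-box at 24 to 17 bases before it. The Per3 stretch (chr4:151044666-151044915, minus strand) has 2 D-boxes, at 205 to 198 and 158 to 151 bases before the start. The Cry1 stretch (chr10:85185055-85185304, minus strand) has an E-box at 60 to 55 bases before the start.
Per1: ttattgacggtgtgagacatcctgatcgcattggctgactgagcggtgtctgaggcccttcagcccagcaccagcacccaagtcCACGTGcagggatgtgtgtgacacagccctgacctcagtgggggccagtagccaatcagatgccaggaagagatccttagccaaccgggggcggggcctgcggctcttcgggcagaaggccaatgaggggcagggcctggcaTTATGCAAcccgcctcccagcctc
Per3: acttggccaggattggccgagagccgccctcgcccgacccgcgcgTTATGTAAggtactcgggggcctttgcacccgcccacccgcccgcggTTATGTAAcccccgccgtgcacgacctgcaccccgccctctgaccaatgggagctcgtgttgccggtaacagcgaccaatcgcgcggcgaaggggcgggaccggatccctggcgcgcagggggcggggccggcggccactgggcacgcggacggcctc
Cry1: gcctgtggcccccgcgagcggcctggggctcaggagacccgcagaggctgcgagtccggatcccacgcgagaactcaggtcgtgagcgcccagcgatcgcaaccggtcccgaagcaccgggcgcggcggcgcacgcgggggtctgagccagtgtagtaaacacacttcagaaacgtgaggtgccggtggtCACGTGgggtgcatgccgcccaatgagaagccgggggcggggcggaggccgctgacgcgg

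Both strands were searched for 4 motifs that do not overlap in these stretches, the E-box CACGTG, the D-box TTATGNAA, the ROR element TAGGTCA and the cAMP response element TGACGTCA. Over the 32851 upstream stretches of all genes, 6.02% held the E-box, 3.07% the D-box, 2.23% the ROR element and 1.55% the cAMP response element. Among the 13 stretches of the clock genes, 2 held the E-box, 2 the D-box, and 0 the ROR element or the cAMP response element. A match is a description of these exact letters only, and variants of them or elements outside or across the edge of the window were not searched. The 2 stretches of Arntl overlap, so the 13 are not all separate sequences.

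In fibroblasts of HFD mice no clock gene passed the threshold of an adjusted p under 0.05 (limma, Benjamini-Hochberg over all genes), where 5.35% of all genes did (2.62% higher and 2.73% lower in HFD). At an unadjusted p under 0.05 there were 4 of the 9, Per1, Per3, Cry2 and Per2, against 22.1% of all genes. That count was 1 without ND 3, 2 without HFD 3, 6 without ND 2 and 2 with all 8 arrays. It was 2 after quantile normalization or median centring. With a measure of RNA quality (the 3′ minus 5′ difference of control transcripts) as a covariate it was 0. Over all 17097 genes the count was 3777 in the main fit. There it was 2535 without ND 3, 3224 without HFD 3, 3652 without ND 2 and 2795 with all 8 arrays. After quantile normalization it was 3815, after median centring 3711, and with the covariate 604. The arrays of the diets did not overlap in 2 of the 9, Per1 and Per3, both with HFD above ND, where 9.95% of all genes had HFD above ND and 7.99% HFD below ND. The median log2 difference, HFD minus ND, was 0.24 over the clock genes with 7 of 9 positive, beside 0.02 over all genes with 56.2% positive. Clock and Nr1d2 were the members with a negative difference. Differences of the brightest probe sets were at most 1.27-fold, in Cry2.

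The sorted cells carried the transcripts of fibroblasts in both diets. Cd34 averaged 12.10 in HFD and 12.08 in ND, and Col1a1 averaged 13.23 in HFD and 13.20 in ND, in log2 units, while the probe set of Pdgfra was dim (6.27 in HFD and 5.92 in ND). The mean log2 level of 9 fibroblast markers was 11.22 to 11.30 in HFD and 11.25 to 11.30 in ND. Of the 9, 1 passed, where 5.35% of all genes did: lumican (Lum) fell by 0.34 log2 units (adjusted p = 0.0358). The diets did not overlap in 1 marker with HFD above ND (Pdgfra, by 0.34) and 3 with HFD below ND (Lum, Col1a2 and Dcn). Over all genes these shares were 9.95% and 7.99%. Leukocyte (6), endothelial (4), melanocyte and Schwann (3) and muscle and mural (4) markers had 0 members past the threshold. The largest difference among them was 0.49 log2, in Des of the muscle and mural list, with overlapping arrays (limma adjusted p = 0.168). Keratinocyte markers had a mean of 6.5 to 7.7 in HFD, 6.29 to 6.81 in ND 1 to 3 and 7.14 in the excluded ND 4. All 17 measured members were higher in HFD than in ND 1 to 3 on average, with 0 past the threshold. Some were bright in single arrays, such as Dsp, at 7.95 to 10.92 in HFD and 6.90 to 8.81 in ND. Their largest difference was 1.55 log2 (Perp, limma adjusted p = 0.143), above that of any clock gene. The array's control probe sets for Gapdh and Actb give a 3′ minus 5′ difference, a sign of RNA quality, which was −0.44 to −0.38 in HFD and −0.34 to −0.18 in ND (p = 0.0286 in an exact two-sided permutation test, the lowest p possible for 4 against 3 arrays). It was highest in ND 3 (−0.18), and ND 4 had −0.37. In these bulk samples a smaller number of expressing cells and less RNA per cell cannot be told apart.

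**Figure D1:**
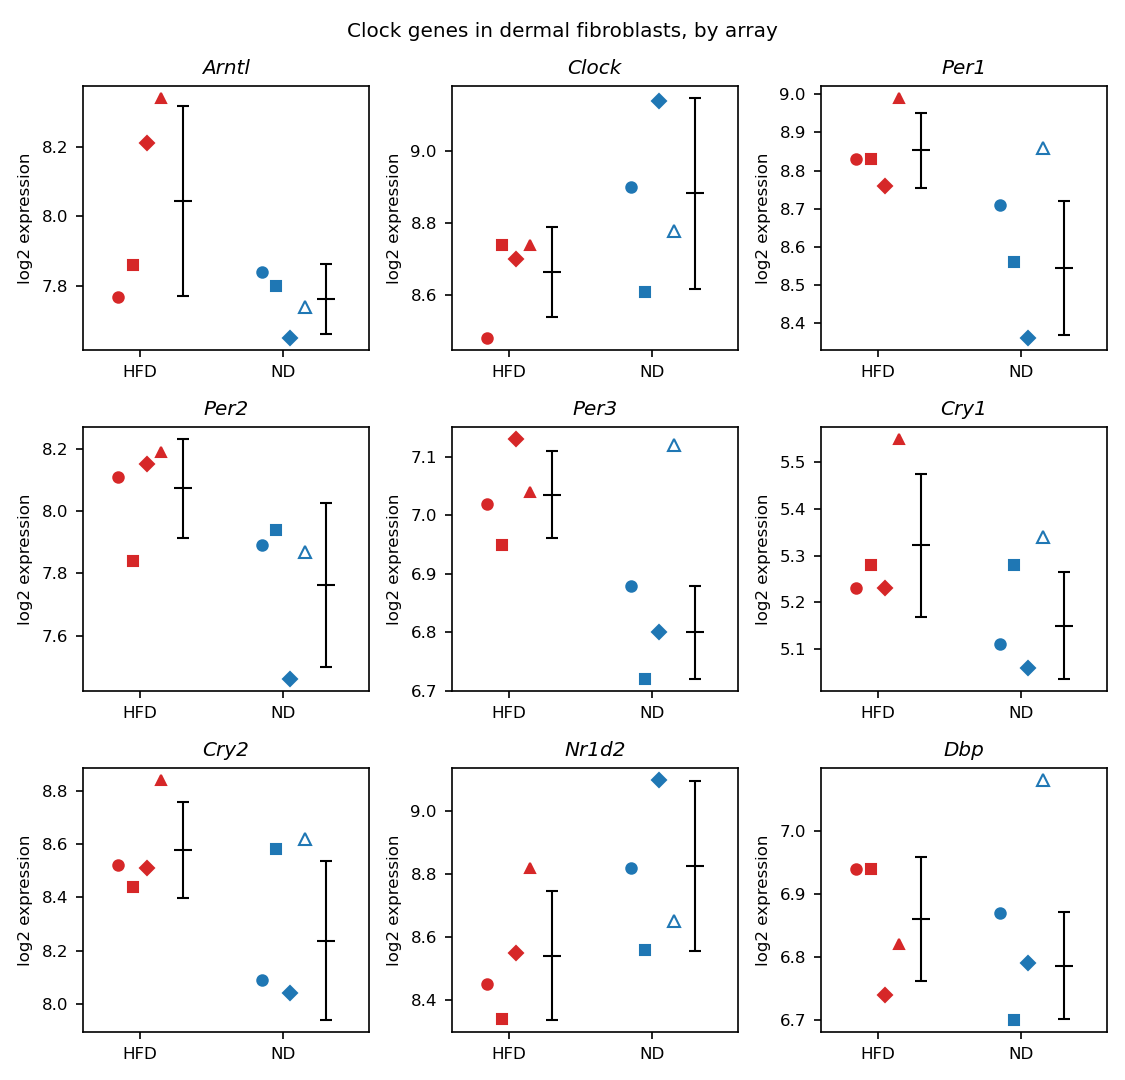
Log2 expression of the 9 measured clock genes in each array, HFD (red) left of ND (blue). Circles, squares, diamonds and triangles are specimens 1 to 4, the open triangle is ND 4, which the labels exclude, and the black marks are the mean and SD of HFD 1 to 4 and ND 1 to 3. The filled points of the diets do not overlap in Per1 and Per3, and ND 4 lies among the HFD arrays in both.

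Neither activator of the loop passed. Arntl was at 7.77, 7.86, 8.21 and 8.34 log2 units in HFD 1 to 4, and at 7.84, 7.80 and 7.65 in ND 1 to 3. HFD 2, HFD 3 and HFD 4 were above every ND array, HFD 2 narrowly, whereas HFD 1 lay among them. The means were 8.05 ± 0.27 (SD, n = 4) in HFD and 7.76 ± 0.10 (SD, n = 3) in ND, a log2 difference of 0.28 with a 95% interval of −0.03 to 0.59 (adjusted p = 0.275). The other probe set of Arntl, which was dimmer, differed by 0.20, with HFD 4 again the highest array at 7.81.

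Clock was at 8.48, 8.74, 8.70 and 8.74 log2 units in HFD 1 to 4, and at 8.90, 8.61 and 9.14 in ND 1 to 3. All HFD arrays were below ND 1 and ND 3, and 3 of the 4 were above ND 2. The log2 difference was −0.22 with a 95% interval of −0.50 to 0.07 (adjusted p = 0.363). The 3 other probe sets of Clock differed by −0.13, −0.22 and −0.14, each with ND 3 as its highest array.

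Among the inhibitors, Per1 had the smallest p of any clock gene. It was at 8.83, 8.83, 8.76 and 8.99 log2 units in HFD 1 to 4, and at 8.71, 8.56 and 8.36 in ND 1 to 3. All HFD arrays were higher than all of ND 1 to 3, but the excluded ND 4 (8.86) lay within the HFD range. Per1 averaged 8.85 ± 0.10 (SD, n = 4) in HFD and 8.54 ± 0.18 (SD, n = 3) in ND, a 1.24-fold difference (0.31 on the log2 scale, SE 0.10, adjusted p = 0.112).

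Per2, which encodes a partner of the CRY proteins in the inhibitory complex, was at 8.11, 7.84, 8.15 and 8.19 log2 units in HFD 1 to 4. In ND 1 to 3 it was at 7.89, 7.94 and 7.46. HFD 2 lay among the ND arrays, and ND 3 was well below all others. The log2 difference was 0.31 with a 95% interval of 0.01 to 0.61 (adjusted p = 0.209), and 0.36 in the dimmer probe set. Without ND 3 the difference of Per2 was 0.16 (adjusted p = 0.612).

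Per3, the paralogue that is least needed for rhythms in mice, was at 7.02, 6.95, 7.13 and 7.04 log2 units in HFD 1 to 4. In ND 1 to 3 it was at 6.88, 6.72 and 6.80. The diets did not overlap, while ND 4 (7.12) lay within the HFD range. Per3 averaged 7.04 ± 0.07 (SD, n = 4) in HFD and 6.80 ± 0.08 (SD, n = 3) in ND, a log2 difference of 0.24 (SE 0.08, adjusted p = 0.118). Its 4 other probe sets, all dimmer, overlapped between diets and differed by 0.12, 0.03, 0.12 and −0.12.

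The cryptochromes, which inhibit the BMAL1 and CLOCK dimer most strongly, were represented by 1 probe set each. Cry1 was dim, at 5.23, 5.28, 5.23 and 5.55 log2 units in HFD 1 to 4, and at 5.11, 5.28 and 5.06 in ND 1 to 3. Only HFD 4 stood above the highest ND array, and the log2 difference was 0.17 with a 95% interval of −0.02 to 0.37 (adjusted p = 0.282). No detection calls were used, so signal near background is known from the level alone, and Cry1 was the clock gene below the median gene of 6.77.

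Cry2 was at 8.52, 8.44, 8.51 and 8.84 log2 units in HFD 1 to 4, and at 8.09, 8.58 and 8.04 in ND 1 to 3. ND 1 and ND 3 were below every HFD array, and ND 2 was above 3 of them. The means of Cry2 were 8.58 ± 0.18 (SD, n = 4) in HFD and 8.24 ± 0.30 (SD, n = 3) in ND. Their log2 difference was 0.34 with a 95% interval of 0.02 to 0.67 (adjusted p = 0.205).

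Nr1d2, the repressor REV-ERB beta, was at 8.45, 8.34, 8.55 and 8.82 log2 units in HFD 1 to 4, and at 8.82, 8.56 and 9.10 in ND 1 to 3. HFD 1, 2 and 3 were below every ND array, and HFD 4 equalled ND 1. The log2 difference was −0.29 with a 95% interval of −0.61 to 0.04 (adjusted p = 0.286), and the dimmer probe set of Nr1d2 differed by 0.02. Dbp, the output activator, was at 6.94, 6.94, 6.74 and 6.82 in HFD 1 to 4, and at 6.87, 6.70 and 6.79 in ND 1 to 3. Its arrays were interleaved, and the log2 difference of Dbp was 0.07 with a 95% interval of −0.12 to 0.26 (adjusted p = 0.682). In ND 4 Dbp was at 7.08, above all the other arrays.

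**Figure D2:**
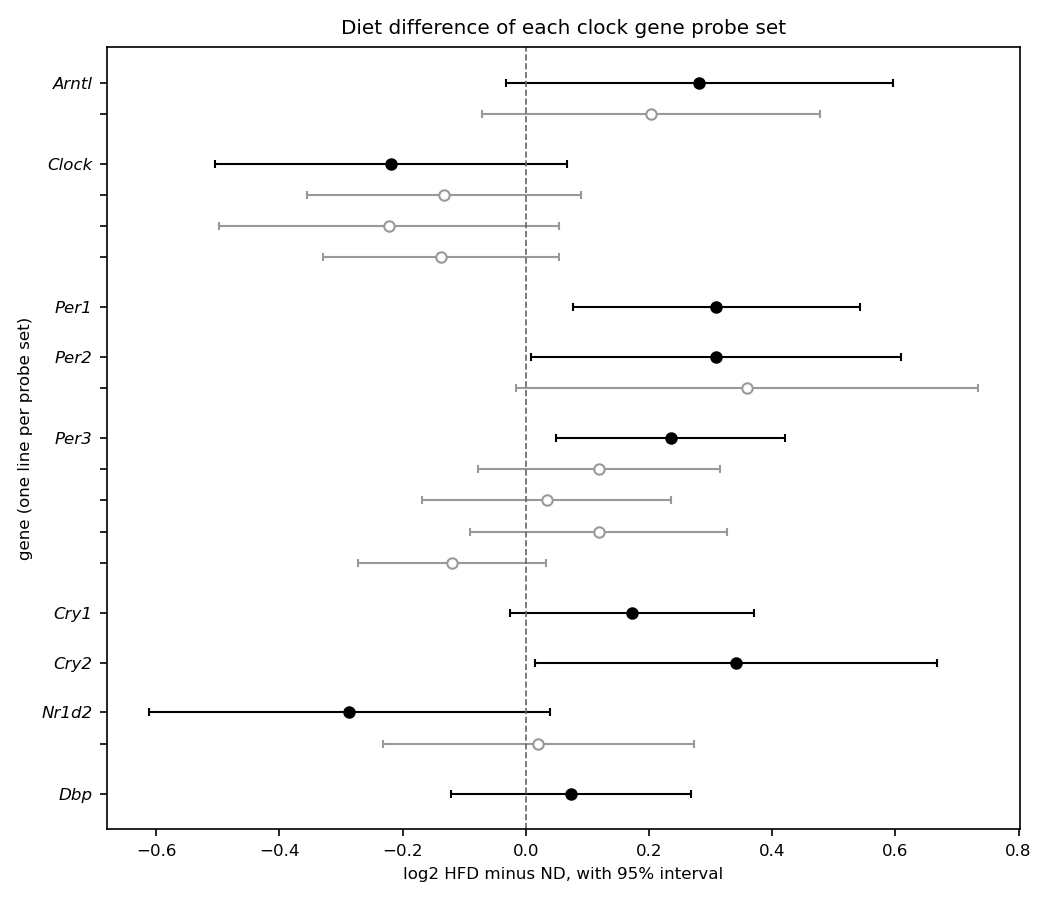
Log2 difference, HFD minus ND, with its 95% interval for each of the 19 probe sets of the clock genes, the brightest of each gene in black and the others in grey. The black intervals of Per1, Per2, Per3 and Cry2 lie above 0, and of the 10 grey probe sets 8 share the sign of the black one while 1 each of Per3 and Nr1d2 do not.

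The members varied together in part between single arrays. HFD 4 was the highest and ND 3 the lowest of the 7 arrays in the same 5 genes, Arntl, Per1, Per2, Cry1 and Cry2. ND 3 was also the highest array for Clock and Nr1d2. Over all genes HFD 4 was the highest array in 16.1% and ND 3 the lowest in 25%. In ND 3 the deviation from the mean over the 7 arrays was −0.48 log2 in Per2, −0.39 in Cry2, −0.36 in Per1, 0.38 in Clock and 0.44 in Nr1d2. In HFD 4 it was 0.42 in Arntl, 0.41 in Cry2, 0.30 in Cry1 and 0.27 in Per1. The array with the most extreme clock levels in ND was also the array whose 3′ minus 5′ difference was highest. A link between them was not tested.

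**Figure D3:**
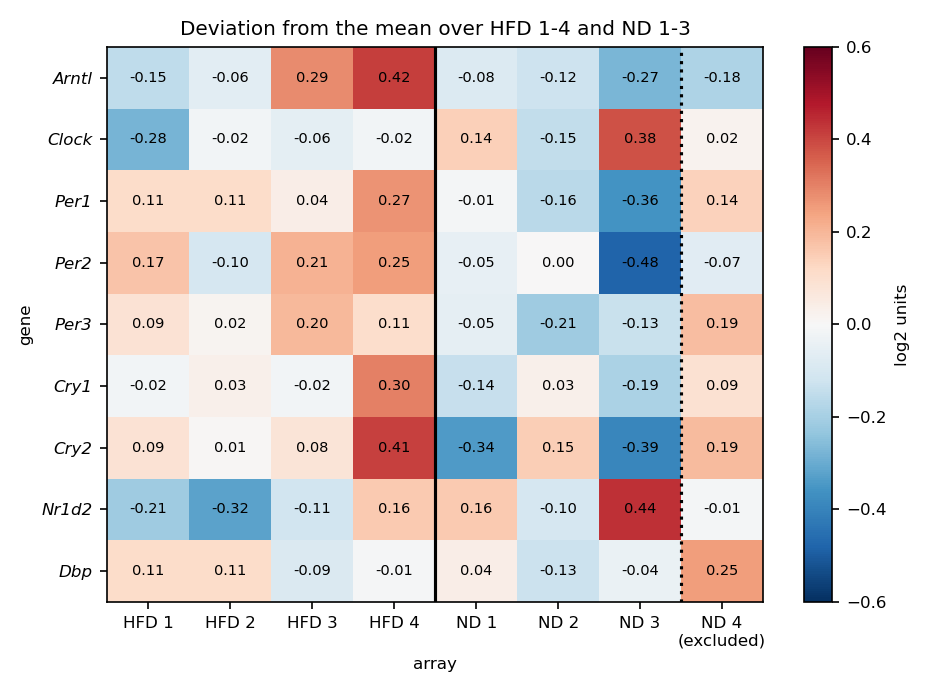
Deviation of each clock gene from its own mean over HFD 1 to 4 and ND 1 to 3, in log2 units, by array, with HFD left of ND and the excluded ND 4 at the right. ND 3 holds the lowest value of Per2 (−0.48) and the highest of Nr1d2 (0.44), and HFD 4 the highest of Arntl (0.42) and Cry2 (0.41).

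Several of these differences were smaller without ND 3, or smaller or turned with the RNA quality measure as a covariate. That measure did not overlap between the diets, so a fit that includes it cannot tell it apart from diet. The SE of Per1 was 0.17 in that fit and 0.10 in the main one. Without ND 3 the log2 difference was 0.22 for Per1, 0.24 for Per3, 0.24 for Cry2, −0.09 for Clock and −0.15 for Nr1d2. With the 3′ minus 5′ difference as a covariate it was 0.05 for Per1, 0.32 for Per3 and 0.15 for Arntl, and it changed sign for Clock (0.11), Nr1d2 (0.07), Per2 (−0.01), Cry1 (−0.06) and Cry2 (−0.06). With the mean of the keratinocyte markers as the covariate it was 0.29 for Per1, 0.23 for Per3, 0.43 for Per2 and 0.46 for Cry2. No clock gene passed in any of these 3 fits, but few of all 17097 genes did. Those were 11 without ND 3, 0 with the 3′ minus 5′ covariate and 22 with the keratinocyte covariate. With all 8 arrays the log2 difference was 0.23 for Per1 and 0.16 for Per3. The excluded ND 4 lay within the HFD range in 6 of the 9 genes and within the range of ND 1 to 3 in 4.

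The genes with the array pattern most like that of a clock gene were sought for the 3 members with the largest SD over the 7 arrays, Cry2, Nr1d2 and Arntl. Likeness was the root mean square difference between the deviations of both genes from their own means over the 7 arrays. Nearest to Cry2 were Ipo7 (0.06 log2), Lrrc58 (0.06) and Snd1 (0.07). Nearest to Nr1d2 were Mef2a (0.07), Senp6 (0.09) and Pla2g7 (0.09), and nearest to Arntl were Msl2 (0.05), Frg2f1 (0.06) and Atp11b (0.06). Among clock genes the nearest to Nr1d2 was Clock, at rank 49 of 17096 other genes (0.14), the nearest to Cry2 was Cry1, at rank 126 (0.14), and the nearest to Arntl was Cry1, only at rank 668 (0.16).

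Other regulators of the clock moved in both directions. Of 31 listed, 26 were measured, and 2 rose (Timeless and Rora), 3 fell (Gsk3b, Nono and Prkaa2) and 21 did not pass, where 5.35% of all genes passed. At an unadjusted p under 0.05 there were 12 of 26, against 22.1% of all genes. The median log2 difference of this list was 0.01. The diets did not overlap in 12 of the 26, against 17.9% of all genes. The count of 5 became 0 without ND 3, HFD 2, HFD 3 or HFD 4, 1 without ND 2, and 0 with all 8 arrays or with either covariate, as the count over all genes also fell (914, and 22 with the keratinocyte covariate). The log2 differences with the keratinocyte covariate were −0.46 for Gsk3b, −0.44 for Nono, −0.31 for Prkaa2, 0.35 for Rora and 0.45 for Timeless. With the 3′ minus 5′ covariate they were −0.23, −0.34, −0.38, 0.24 and 0.43 in the same order. In all 5 genes the excluded ND 4 lay beyond ND 1 to 3 on the side of the HFD arrays.

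Rora encodes the nuclear receptor that activates Arntl through the element REV-ERB occupies. It was at 11.35, 11.42, 11.60 and 11.65 log2 units in HFD 1 to 4, and at 11.19, 11.18 and 11.02 in ND 1 to 3. The diets did not overlap, and Rora rose by 0.38 log2 units (SE 0.09, adjusted p = 0.0412), with ND 4 at 11.46. Its 4 other probe sets, all dimmer, differed by 0.46, 0.05, −0.28 and 0.27, so 1 of them went the opposite way (unadjusted p = 0.0216, limma).

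Timeless, which acts in DNA replication and has a debated part in the mammalian clock, showed the largest rise of the list. It was at 7.90, 8.55, 8.17 and 7.98 log2 units in HFD 1 to 4, and at 7.54, 7.52 and 7.30 in ND 1 to 3. All HFD arrays were above ND 1 to 3, and ND 4 (7.93) lay within the HFD range. The log2 difference of Timeless was 0.70 (SE 0.15, 1.62-fold, adjusted p = 0.0330), and 0.45 once the keratinocyte mean was a covariate. A dimmer probe set of Timeless went the opposite way (−0.14, unadjusted p = 0.0499, limma).

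Gsk3b encodes a kinase that phosphorylates several clock proteins. It was at 10.16, 10.20, 10.14 and 10.08 log2 units in HFD 1 to 4, and at 10.50, 10.50 and 10.76 in ND 1 to 3, while ND 4 was at 10.07. The arrays of the diets were separate, and Gsk3b fell by 0.44 log2 units (SE 0.09, adjusted p = 0.0278). Its 3 other probe sets differed by −0.33, −0.05 and −0.05.

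Nono, an RNA-binding partner of the PER proteins, was at 9.99, 9.98, 9.72 and 9.66 log2 units in HFD 1 to 4, and at 10.24, 10.22 and 10.36 in ND 1 to 3. It fell by 0.44 log2 units (SE 0.10, adjusted p = 0.0411), and its other probe sets differed by −0.65 and 0.00. Prkaa2, a catalytic subunit of the AMP-activated kinase that marks CRY1 for degradation, was dim. It was at 5.72, 5.77, 5.58 and 5.81 in HFD 1 to 4 and 5.97, 6.07 and 6.07 in ND 1 to 3, and fell by 0.32 log2 units (SE 0.07, adjusted p = 0.0386). Its other probe sets differed by −0.25 and 0.01. In both genes every HFD array was below ND 1 to 3.

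**Figure D4:**
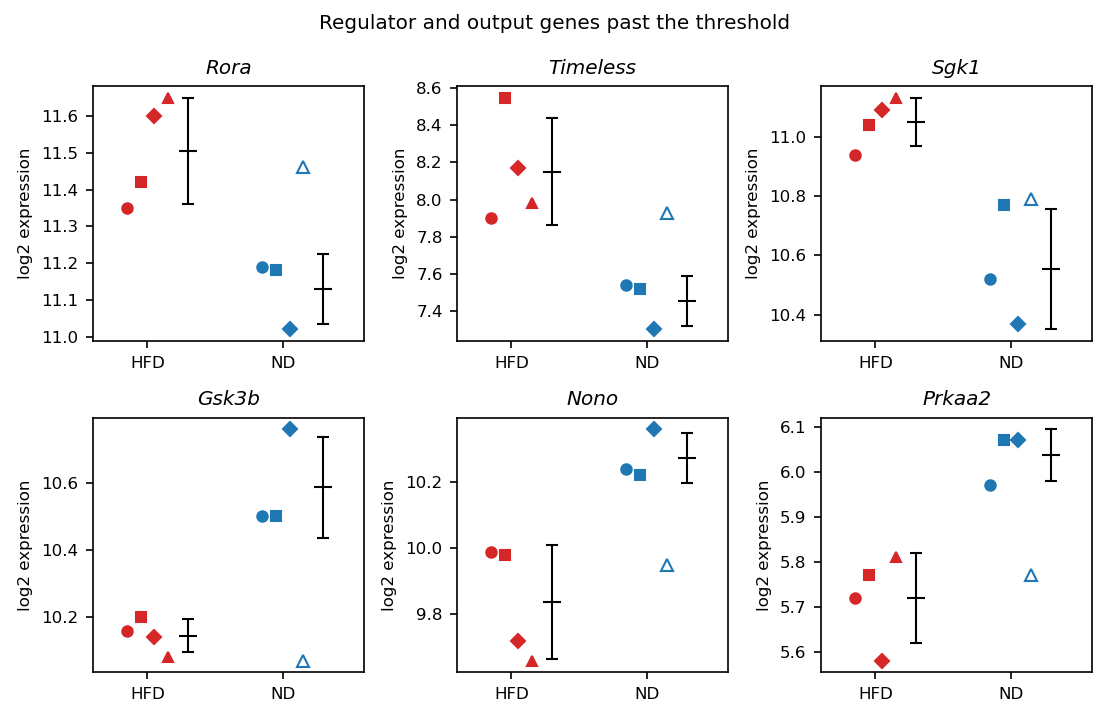
Log2 expression of the 6 regulator and output genes past the threshold in each array, HFD (red) left of ND (blue), with symbols as for the clock genes and the black marks giving mean and SD of HFD 1 to 4 and ND 1 to 3. The filled points of the diets are separate in all 6 genes, and the open triangle of ND 4 lies on the HFD side of ND 1 to 3, narrowly so in Sgk1 (10.79, with ND 2 at 10.77).

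The regulators with the next smallest p did not pass. Btrc, a subunit of the ubiquitin ligase that targets the PER proteins, differed by 0.31 on the log2 scale (adjusted p = 0.0517), with HFD at 9.49 to 9.62 and ND at 9.15 to 9.26. The dimmer probe sets of Btrc differed by 0.24, 0.00, 0.06 and 0.01. Npas2, which can stand in for CLOCK, was at 9.24 to 9.35 in HFD and 9.47 to 10.02 in ND. ND 3 was the highest array for Npas2, as it was for Clock, and the log2 difference was −0.42 (adjusted p = 0.0724) and −0.26 without ND 3. A slightly dimmer probe set of Npas2 differed by −0.19, with overlapping arrays. Csnk1e, a kinase of the PER proteins, differed by −0.33 (adjusted p = 0.0774), while its dimmer probe sets differed by 0.23 and 0.15. Hlf, a relative of Dbp, differed by 0.26 (adjusted p = 0.116), and its dimmer probe set by −0.02.

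Among genes often reported as rhythmic or clock controlled in mouse tissues, 15 were listed and 12 measured. Of these 1 rose (Sgk1), 0 fell and 11 did not pass, where 5.35% of all genes passed, and 3 had an unadjusted p under 0.05 (limma), against 22.1% of all genes. Their median log2 difference was 0.20 with 9 of 12 positive, beside 0.02 over all genes with 56.2% positive. HFD 4 was the highest array in 6 of the 12 and ND 3 the lowest in 7. The single call was lost without ND 3, HFD 2, HFD 3 or HFD 4, with all 8 arrays and with either covariate. The count over all genes also fell, from 914 to 210 or fewer in each of these fits. The log2 difference of Sgk1 was then 0.41, 0.50, 0.48 and 0.47 without those arrays in that order, 0.44 with all 8 arrays, 0.50 with the keratinocyte covariate and 0.20 with the 3′ minus 5′ covariate.

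Sgk1, a kinase induced by glucocorticoids, was at 10.94, 11.04, 11.09 and 11.13 log2 units in HFD 1 to 4, and at 10.52, 10.77 and 10.37 in ND 1 to 3. The diets did not overlap, ND 4 (10.79) lay below the HFD arrays, and Sgk1 rose by 0.50 log2 units (SE 0.10, 1.41-fold, adjusted p = 0.0283). Tsc22d3, the glucocorticoid-induced leucine zipper, was at 9.69 to 10.16 in HFD and 9.13 to 9.58 in ND, a log2 difference of 0.50 (adjusted p = 0.0668). Its other probe sets differed by 0.53 and 0.12. The cell cycle inhibitor Cdkn1a differed by 0.20 (adjusted p = 0.167), Coq10b, of coenzyme Q function, by 0.26 (adjusted p = 0.334), and the glucocorticoid-induced chaperone partner Fkbp5 by 0.23 (adjusted p = 0.420). A probe set of Fkbp5 that was nearly as bright differed by 0.49, with every HFD array above ND 1 to 3 (unadjusted p = 0.0128, limma), and its dim probe set by 0.04. The other probe sets of Cdkn1a and Coq10b differed by 0.07 and 0.10.

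**Figure D5:**
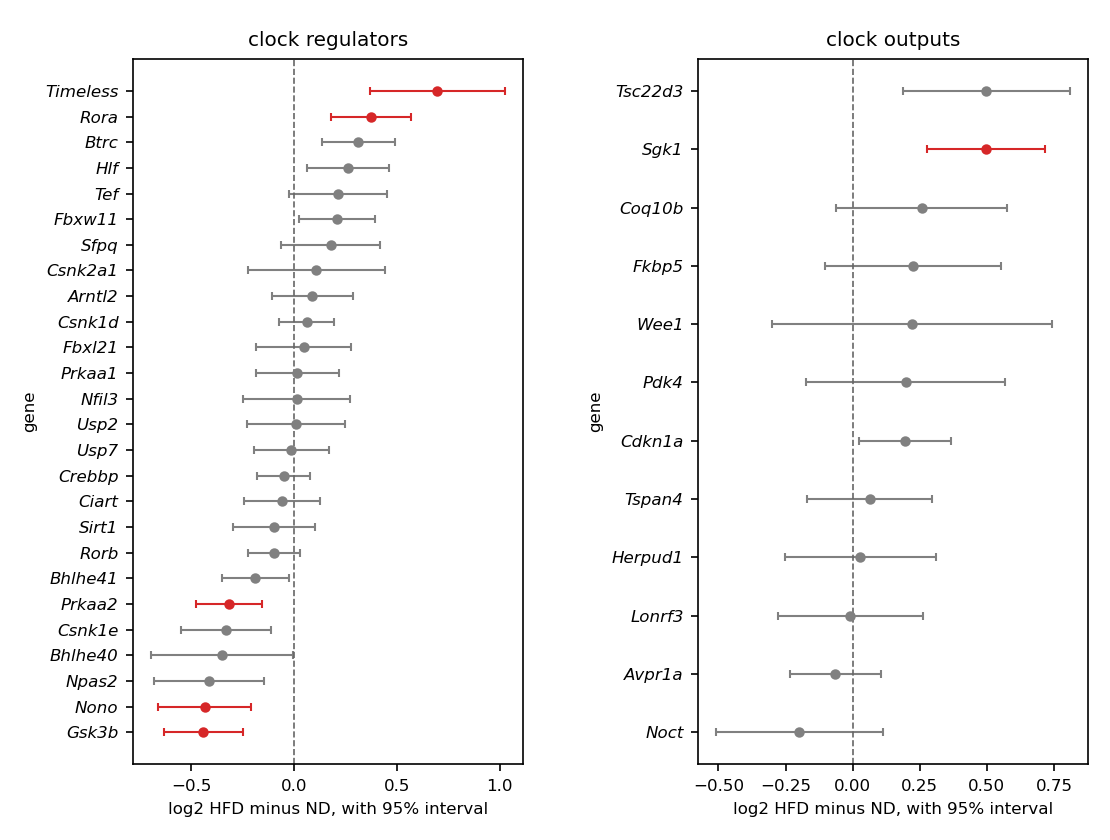
Log2 difference, HFD minus ND, with its 95% interval for the 26 clock regulators (left) and 12 clock outputs (right), in order of their difference. Genes past the threshold are red: Timeless and Rora above 0 and Prkaa2, Nono and Gsk3b below 0 among the regulators, and Sgk1 above 0 among the outputs.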

How the data were processed

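For 45141 probe sets, log2 values were deposited that the authors had made with RMA and the affy package, per the submitters' processing notes, which name no version. They run from 3.56 to 13.5, with array quartiles at most 0.04 log2 apart, which would hide a change in total RNA. No further scaling was applied. The platform annotation named the probe sets, 28898 with 1 symbol, 551 with several and 15692 with none here. Symbols of 28689 were updated through RefSeq GRCm38.p6, which also gave the promoter sequences. Each of 17097 genes was its brightest probe set over the 7 arrays.

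HFD 1 to 4 were compared with ND 1 to 3 in limma 3.58.1 (R 4.3.3, lmFit, eBayes with trend), with Benjamini-Hochberg adjustment over every gene and a threshold of 0.05. The fit was tested on simulated data for 17097 genes with independent noise, 200 of them shifted. It called 66.1% of genes shifted by 0.5 log2 and 95.6% of those shifted by 1, and 4.87% of its calls were false. The simulation held no variation shared between the genes of an array, so these percentages need not hold for the real arrays. Shifts under 0.5 log2, where every clock gene difference lay, were not simulated. The members, the regulator and output lists, the markers and the alternatives were chosen with earlier results of these data known. The rule named all members, list genes past the threshold, the 4 others with the smallest p in each list, and 3 genes per member for likeness. The limma p-values set each diet difference against the spread between these arrays, which the fit draws towards a trend over all genes. Specimen numbers were not taken to pair the mice: the deviations of same-numbered arrays correlated over genes at −0.18, −0.29 and −0.05. Figures were drawn with matplotlib 3.10.9.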

Additional observations from a re-analysis of the deposited data

Results flagged for a closer look

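Clock in HFD 1, at 8.48 log2 units, lay apart from the other HFD arrays, of which the nearest was at 8.70. Cry1 in HFD 4, at 5.55, lay apart from the other HFD arrays, of which the nearest was at 5.28. The gap took up 0.846 of the range of the 4 arrays for Clock and 0.844 for Cry1, more than the critical value of Dixon's test, and these were 2 of the 47 genes of the clock lists. Chance alone sets an array apart in about 1 of 20 groups, and Cry1 was dim.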

How the results depend on the processing

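No clock gene passed under any of the alternatives run, with adjusted p from 0.0616 (Cry2 without ND 2) to 1. Arntl, Per1 and Per3 kept a positive difference in 17 of 17 settings of the brightest probe set, at 0.15 to 0.37, 0.05 to 0.39 and 0.16 to 0.32 log2, and with the mean of probe sets. Signs turned with the 3′ minus 5′ covariate for Clock (0.11), Nr1d2 (0.074), Per2 (−0.011), Cry1 (−0.062), Cry2 (−0.062), Coq10b (−0.052) and Fkbp5 (−0.15), with the mean of probe sets for Csnk1e (0.016), and in a dimmer probe set of Nr1d2 (0.02) and Per3 (−0.12). With all 8 arrays the difference of Dbp was 0. The cause was not tested, and the 3′ minus 5′ measure did not overlap between the diets, so it cannot be told apart from diet. The count over all genes (914) was 1947 at an adjusted p under 0.1, 6 with all 8 arrays, 1387 among genes at or above the median, 400 with the mean of probe sets, 0 with the 3′ minus 5′ covariate (604 at an unadjusted p under 0.05), 22 with the keratinocyte covariate, and 6 to 1072 leaving out 1 array. The regulator count (5) was 8 at an adjusted p under 0.1, 1 with the mean of probe sets, 0 with all 8 arrays or either covariate, and 0 to 5 leaving out 1 array. The output count (1) was 2 at an adjusted p under 0.1 and among the brighter genes, 0 with all 8 arrays or either covariate, and 0 to 1 leaving out 1 array. With the specimen number as a replicate block, which had no support as a pairing, the counts were 1 over all genes, 0 for regulators, 0 for outputs and 0 for clock genes. Other normalizations, variance models and array weights kept the counts past the threshold within 1.5 times. The alternatives for single regulator and output genes were chosen after seeing the data. Without detection calls, what low signal such as that of Cry1 or Prkaa2 measures is limited.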
